A study of Homo sapiens with 32 samples.

Results

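The genes described here encode the proteins of the nuclear pore and the receptors that carry cargo through it in HEK293 cells, a human cell line that was made from embryonic kidney. They were taken by symbol: names beginning with NUP and a number for the pore, and the KPNA, KPNB, IPO, XPO and TNPO names for the receptors, with at least 50 counts over all libraries. Of 45 matching symbols, 41 qualified, 19 of the pore and 22 receptors, among 32738 gene entries in the table. The 4 left out were KPNA7 with 0 counts, NUP210L with 3, IPO4 with 19 and NUP62 with 27, and the members just inside the limit were IPO13 with 184 and NUP62CL with 348. All 41 also passed the filter on low counts and were tested.

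The nuclear pore is a ring-shaped channel through the nuclear envelope, built of a scaffold (the Y complex in its outer rings and an inner ring), a membrane anchor, and proteins rich in phenylalanine-glycine repeats that line the channel and extend to both faces. Transport receptors of the karyopherin family bind a cargo and pass through those repeats. Importins release it where the GTPase Ran is loaded with GTP, in the nucleus, and exportins pick it up there. Importin alpha proteins (the KPNA genes) are adaptors that join cargo with a classical nuclear localization signal to importin beta (KPNB1).

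The cells were incubated with 4-thiouracil, a sulphur-bearing uracil used to tag RNA made during the incubation, for 0, 5, 15 or 30 min. The sample titles name TT-seq, transient transcriptome sequencing, a method that enriches the tagged RNA, and the labels give the RNA as polyadenylated. They do not state at which times an enrichment was made or how the 0 min cells were handled, so each value is a share of the RNA counted at that time. Each of the 4 times had 2 biological replicates, called cultures here, with 2 cDNA preparations per culture and 2 libraries per preparation, 32 libraries in all. No label says that the cultures were grown separately, so p-values measure the spread between these samples, which may be technical.

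Libraries held 188686 to 381471 counts, and the 4 libraries of a culture summed to between 776871 (culture 1 at 5 min) and 1396056 (culture 1 at 30 min). Libraries of the same cDNA, 16 pairs, were closer to each other than independent sampling gives, with chi-square over its degrees of freedom of 0.327 to 0.594. Their counts are therefore not independent, and they were counted as 1 sample. In the 32 pairs of different cDNA from the same culture it was 1.14 to 2.29. Of the genes that mark this line, VIM had 2814 counts, KRT8 104, KRT18 74, NEFM 55, LHX1 41, PAX2 5 and INA 4. Of the markers of blood, liver, endothelium and fibroblasts, PTPRC, CD3E, MS4A1, HBB, ALB and CDH5 had 0 counts in all 32 libraries, HBA1 had 1 and COL1A1 had 16. Levels below are counts scaled to library size (CPM) with TMM factors, which even out the bulk of the genes between cultures. They are not per length and serve to compare 1 gene between times. The scaling matters here, since the TMM factors were 1.10 to 1.23 in the 6 later cultures, against 0.684 and 0.637 in the 0 min cultures.

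At 5 min the pore genes were divided under TMM scaling, and most receptor genes stood higher than at 0 min. Of the 19 pore genes 8 rose and 3 fell, and of the 22 receptors 15 rose and 3 fell, where "rose" and "fell" mean an adjusted p under 0.05 in edgeR's quasi-likelihood test with Benjamini-Hochberg adjustment over all 10439 genes tested. The background is wide: 54.7% of all genes tested passed this test, 28.7% higher and 26% lower at 5 min. The share of members that rose was 42.1% of the pore genes and 68.2% of the receptors. The median log2 fold change was 0.33 over the pore genes and 0.96 over the receptors, against 0.10 over all genes tested. The difference between the classes was not tested, because the members had been chosen. Without any test, both 5 min cultures lay above both 0 min cultures in 10 pore genes and 17 receptors and below them in 5 pore genes and 3 receptors, where 38.7% of all genes tested lay above and 35% below.

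**Figure D1:**
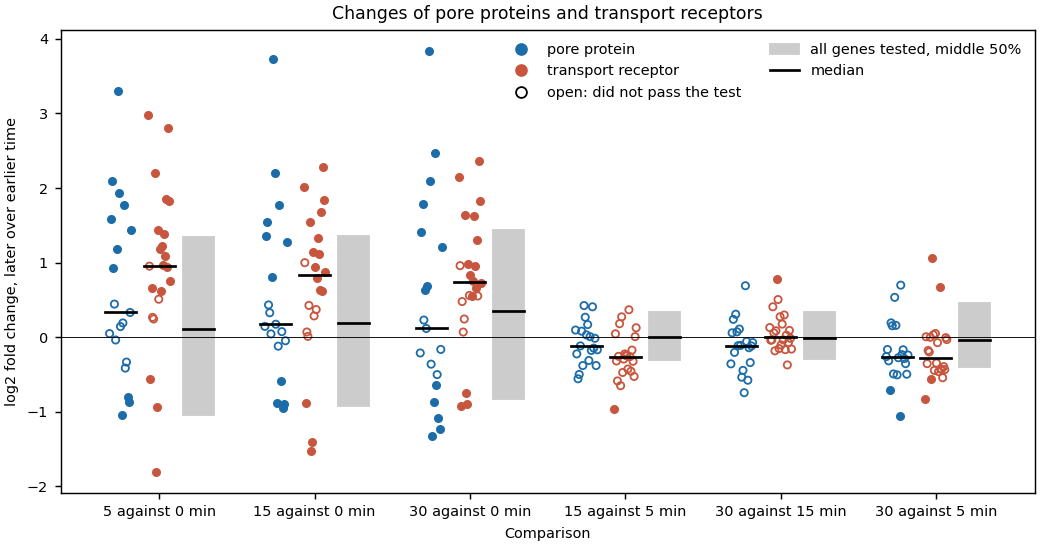
The log2 fold change of each member (later over earlier time) in 6 comparisons of incubation times, with pore proteins in blue and transport receptors in red; filled points passed edgeR's test, open points did not, black lines are medians and the grey bars span the middle 50% of all genes tested. In the 3 comparisons with 0 min the pore medians (0.33, 0.17 and 0.12) lie below the receptor medians (0.96, 0.84 and 0.74), and in the 3 comparisons among later times few members passed the test.

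NUP210, the membrane glycoprotein that forms a ring in the lumen of the envelope, changed most among the pore genes. It had 7.25 and 10.8 TMM-scaled CPM in the 2 cultures at 0 min, 68.4 and 104 at 5 min, 119.6 and 116 at 15 min, and 126 and 128 at 30 min. Each later culture was far above both 0 min cultures, which rest on only 6 and 7 counts. The log2 fold change was 3.30 ± 0.37 (SE) at 5 against 0 min, a 9.84-fold difference with an adjusted p of 2.78e-09 by edgeR's test. At 15 and at 30 min against 0 min it was 3.72 ± 0.35 and 3.83 ± 0.35. The annotation lists 3 pseudogenes named for NUP210, so reads could be shared between them.

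The proteins of the nuclear basket side both rose. NUP153, a repeat protein that anchors the basket, had 62.8 and 43.2 TMM-scaled CPM at 0 min, 242 and 220.4 at 5 min, 162 and 151 at 15 min, and 174 and 196 at 30 min. It was highest at 5 min, 4.28-fold over 0 min (log2 2.10 ± 0.23, edgeR adjusted p = 1.34e-09), although no step between later times passed the test. NUP50, which helps importin alpha let go of its cargo, had 6.04 and 18.5 at 0 min, 20.1 and 55.8 at 5 min, 40.7 and 39.7 at 15 min, and 73.3 and 56.6 at 30 min. Its cultures at 0 and at 5 min lay wide apart. The log2 fold change at 5 against 0 min, 1.77 ± 0.48 (edgeR adjusted p = 0.00213), was 1.14 without culture 1 of 0 min and 0.80 without culture 2 of 5 min, and passed the test in neither case. Its change at 15 against 0 min, 1.78, was 1.14 without culture 1 of 0 min, which also ended the call. At 30 against 0 min it was 2.47 ± 0.45 (edgeR adjusted p = 1.76e-05).

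On the cytoplasmic side NUP214 rose, and its partner NUP88 fell under TMM scaling but not when scaled by total counts. NUP214, a repeat protein of the cytoplasmic filaments, had 30.2 and 32.4 TMM-scaled CPM at 0 min, 109.8 and 129 at 5 min, 147 and 142 at 15 min, and 137 and 131 at 30 min. NUP88, which binds it there, had 151 and 134 at 0 min, 86.2 and 71.4 at 5 min, 69.2 and 85.5 at 15 min, and 64.3 and 57.8 at 30 min. In neither gene did a later culture overlap the 0 min cultures. At 5 against 0 min the log2 fold change was 1.94 ± 0.26 for NUP214 (edgeR adjusted p = 1.04e-07) and -0.87 ± 0.24 for NUP88 (edgeR adjusted p = 0.00196). Scaled by total counts alone, NUP88 was at -0.14 at 5 min, -0.12 at 15 min and -0.35 at 30 min, each against 0 min, and did not pass the test. NUP88 overlaps the genes RABEP1 and RPAIN on the other strand, and counting may have ignored strand, since no source used here gives it, so its counts are uncertain. The same limit holds for NUP214, which overlaps AL157938.2 and AL157938.3 on the other strand. Many other members, among them NUP153, XPO1, KPNA1, TNPO1 and KPNB1, also overlap annotated genes.

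The repeat proteins of the channel were split as well. NUP98, a mobile repeat protein whose gene also encodes the scaffold protein Nup96, had 45.9 and 49.4 TMM-scaled CPM at 0 min, 143 and 118 at 5 min, 119.6 and 111 at 15 min, and 105 and 114 at 30 min. It rose by a log2 of 1.44 ± 0.25 at 5 against 0 min (edgeR adjusted p = 6.83e-06), with the limit that it overlaps CHRNA10 and PGAP2. NUP54, of the central channel, had 256 and 204 at 0 min, 164 and 182 at 5 min, 156 and 151 at 15 min, and 155 and 140.2 at 30 min. All its later cultures were below both 0 min cultures. Its log2 fold change was -0.41 ± 0.19 at 5 min, which did not pass the test (edgeR adjusted p = 0.0642), and it fell at 15 min (-0.59, edgeR adjusted p = 0.00802) and at 30 min (-0.65, edgeR adjusted p = 0.00371), each against 0 min. These 2 decreases did not pass the test without culture 1 of 0 min or without culture 2 of the later time, and turned positive with total counts as the only scaling, to 0.18 and 0.23.

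Members of the scaffold also differed among themselves. Of the 6 Y complex members, NUP133 rose and NUP37 and NUP85 fell at 5 against 0 min, while NUP107, NUP160 and NUP43 did not pass the test. Among all genes tested 28.7% were called higher and 26% lower. NUP133 had 81.0 and 97.3 TMM-scaled CPM at 0 min, 253 and 276 at 5 min, 238 and 216 at 15 min, and 217 and 256 at 30 min. NUP37 had 354 and 366 at 0 min, 175 and 174 at 5 min, 186 and 207 at 15 min, and 141 and 148 at 30 min. Later cultures lay wholly above the 0 min cultures for NUP133 and wholly below them for NUP37, whose 2 cultures were close at every time. The log2 fold changes at 5 against 0 min were 1.58 ± 0.21 for NUP133 (edgeR adjusted p = 4.96e-08) and -1.05 ± 0.18 for NUP37 (edgeR adjusted p = 6.76e-06). NUP85 had 145 and 156 at 5 min against 284 and 239 at 0 min, a log2 fold change of -0.80 ± 0.21 (edgeR adjusted p = 0.00134). Scaled by total counts alone, the change at 5 against 0 min was -0.31 for NUP37 and -0.065 for NUP85, and neither passed the test. NUP107, with 185 and 254 at 5 min against 239 and 187 at 0 min, had overlapping cultures and a log2 fold change of 0.05 ± 0.19.

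Of the 5 inner ring members, NUP205 and NUP155 rose at 5 against 0 min, where 28.7% of all genes tested were called higher. NUP93, NUP188 and NUP35 did not pass the test, at log2 fold changes of 0.33, -0.04 and 0.14. NUP205, a large scaffold protein, had 145 and 134 TMM-scaled CPM at 0 min, 301 and 333 at 5 min, 248 and 240.0 at 15 min, and 215 and 237 at 30 min. NUP155, which links the ring to the membrane, had 215 and 141 at 0 min, 330.4 and 354 at 5 min, 273 and 212 at 15 min, and 189 and 232 at 30 min. NUP205 stayed above its 0 min cultures at every later time, whereas NUP155 overlapped them at 15 and at 30 min. The increase of NUP205 at 5 against 0 min was 1.18 ± 0.19 in log2 (edgeR adjusted p = 2.02e-06) and that of NUP155 was 0.93 ± 0.20 (edgeR adjusted p = 0.000193). NUP93, a linker of the ring, had 268 and 278 at 5 min against 231 and 202 at 0 min, the higher 2 values being those of 5 min. NUP62CL, related to the channel protein NUP62, had 31.9 and 31.1 at 5 min against 45.9 and 32.4 at 0 min and a log2 fold change of -0.33 ± 0.36.

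**Figure D2:**
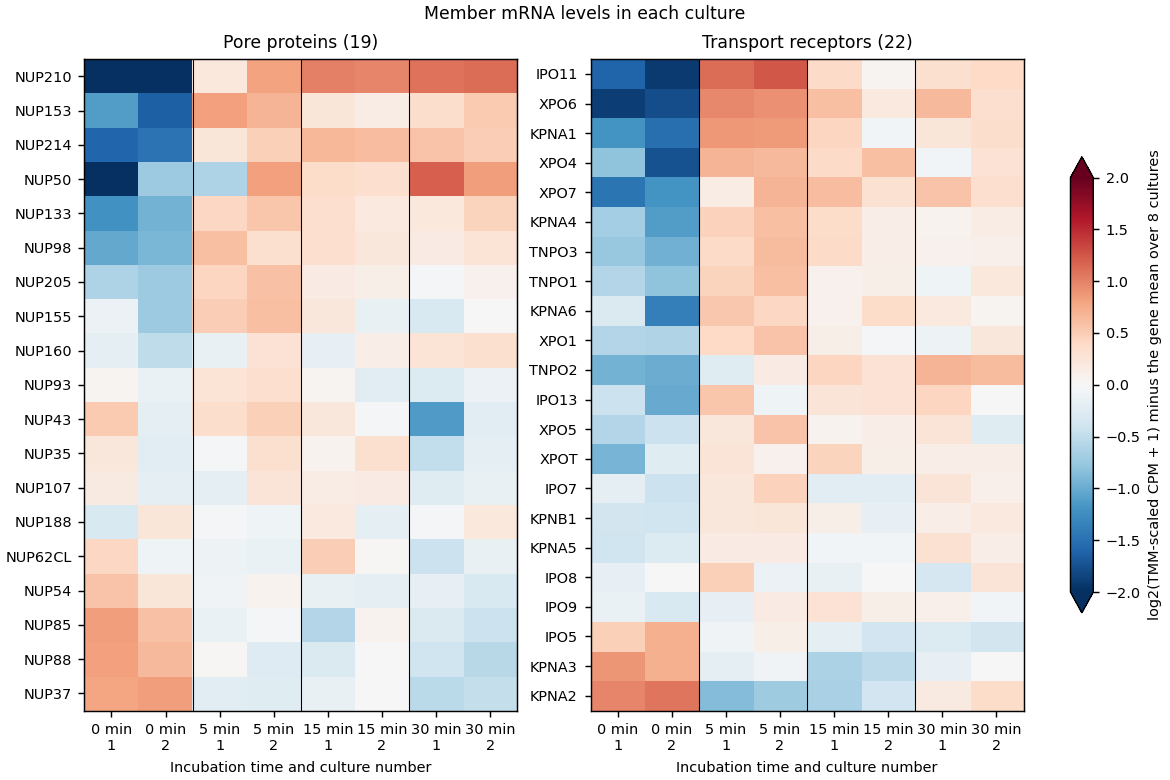
The level of every member in each of the 8 cultures, as log2(TMM-scaled CPM + 1) minus the gene's mean over the cultures; columns run by incubation time and culture, rows are ordered within each class by the log2 fold change of 5 against 0 min. NUP210, IPO11 and XPO6 are lowest in the 0 min cultures (blue), whereas NUP37, NUP88 and KPNA2 are highest there (red).

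All 6 exportins in the set rose at 5 against 0 min, where 28.7% of all genes tested were called higher. Their median log2 fold change was 1.46, with a range of 0.75 to 2.80. CSE1L, an exportin whose symbol lies outside the rule, fell under TMM scaling (log2 -0.66 ± 0.17, edgeR adjusted p = 0.00163). It was at -0.92 at 15 min and -1.01 at 30 min, each against 0 min. CSE1L was not refitted with total counts as the only scaling, which moved the 5 min median of all genes from 0.10 to 0.83. Its decrease may therefore depend on the scaling. XPO6, which exports actin bound to profilin, had 31.4 and 34.0 TMM-scaled CPM at 0 min, 232 and 224 at 5 min, 180.4 and 136 at 15 min, and 187 and 150.0 at 30 min. XPO1, the general exportin for proteins with a leucine-rich export signal, had 208 and 207 at 0 min, 414 and 468 at 5 min, 339 and 306 at 15 min, and 291 and 366 at 30 min. Both were highest at 5 min and above their 0 min cultures at every later time, although no step between later times passed the test for either. XPO6 rose 6.98-fold (log2 2.80 ± 0.25, edgeR adjusted p = 3.34e-11) and XPO1 rose 2.13-fold (log2 1.09 ± 0.19, edgeR adjusted p = 6.12e-06) at 5 against 0 min.

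XPO4, an exportin whose cargoes include the translation factor eIF5A, had 203 and 198 TMM-scaled CPM at 5 min against 71.3 and 37.1 at 0 min (log2 1.85 ± 0.25). XPO7, an exportin of proteins, had 68.4 and 98.9 at 5 min against 21.8 and 26.3 at 0 min (log2 1.83 ± 0.32). In neither did the cultures of the 2 times overlap. XPO5, the exportin of microRNA precursors, had 118 and 149.8 at 5 min against 66.5 and 74.1 at 0 min, and its gene overlaps POLR1C. XPOT, the tRNA exportin, had 73.2 and 64.3 against 31.4 and 51.0 and rose least of the 6 (log2 0.75 ± 0.30, edgeR adjusted p = 0.0327). Without culture 1 of 0 min the change of XPOT was 0.45 and did not pass the test, nor did it pass by DESeq2, with RLE size factors or without culture 1 of 5 min. At 15 against 0 min all 6 exportins rose (median 1.28), where 29.8% of all genes tested were higher. At 30 against 0 min, where 32.1% were higher, 5 did, XPO5 being left at 0.55 ± 0.24 (edgeR adjusted p = 0.0509). The later calls of XPOT and the 15 min call of XPO5 did not pass by DESeq2 or without culture 1 of 0 min, and that of XPO1 at 30 min did not pass without culture 2 of 30 min (0.51).

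The importin alpha adaptors were divided. KPNA1, KPNA4 and KPNA6 rose at 5 against 0 min, KPNA2 and KPNA3 fell, and KPNA5 did not pass the test (log2 0.51 ± 0.26). Over all genes tested 28.7% were called higher and 26% lower. KPNA1 had 71.3 and 57.1 TMM-scaled CPM at 0 min, 299 and 297 at 5 min, 221 and 158 at 15 min, and 195 and 208 at 30 min. KPNA2, the member with the most counts, had 1117 and 1186 at 0 min, 312 and 347 at 5 min, 363 and 436 at 15 min, and 645 and 729.7 at 30 min. KPNA1 was highest at 5 min, the time at which KPNA2 was lowest, although 15 against 5 min passed the test for neither. The log2 fold changes at 5 against 0 min were 2.20 ± 0.22 for KPNA1 (edgeR adjusted p = 3.08e-10) and -1.80 ± 0.18 for KPNA2 (edgeR adjusted p = 3.67e-10). In a bulk culture, fewer cells with the RNA and less of it per cell cannot be told apart. Nor can either be told apart from a difference in the fraction of RNA sequenced at 0 min and later. KPNA3 had 44.8 and 48.0 at 5 min against 94.3 and 83.4 at 0 min, a log2 fold change of -0.93 ± 0.28 (edgeR adjusted p = 0.00486), and its lowest values, 32.3 and 34.9, came at 15 min. Scaled by total counts alone, KPNA3 was at -0.20 at 5 against 0 min and did not pass the test. KPNA6 had 137 and 124 at 5 min against 76.1 and 35.5 at 0 min, and its calls at 15 and 30 min did not pass without culture 2 of 0 min. The annotation lists 3 pseudogenes named for KPNA2 and 3 for TNPO1. It lists 2 each for NUP35 and IPO7, and 1 each for IPO5, XPOT and IPO8.

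Of the 9 import receptors other than these adaptors, 6 rose and 1 fell at 5 against 0 min. Of all genes tested, 28.7% were called higher and 26% lower. IPO11, which imports ubiquitin-conjugating enzymes, had 19.3 and 15.4 TMM-scaled CPM at 0 min, 133 and 145 at 5 min, 79.5 and 63.6 at 15 min, and 76.3 and 80.5 at 30 min. Its 5 min cultures stood above all others, and its gene overlaps KIF2A and LRRC70 on the same strand, so its counts are uncertain. The increase at 5 against 0 min was 7.89-fold (log2 2.98 ± 0.31, edgeR adjusted p = 4.51e-10). KPNB1, the importin beta that the adaptors bind, had 219 and 215 at 0 min, 332 and 335 at 5 min, 308 and 253 at 15 min, and 309 and 325 at 30 min. Its increase was modest, a log2 of 0.62 ± 0.18 at 5 against 0 min (edgeR adjusted p = 0.00415), and at 15 against 0 min it did not pass the test (0.37, edgeR adjusted p = 0.0809). At 30 against 0 min KPNB1 rose by 0.55 ± 0.18 (edgeR adjusted p = 0.00972), although not by DESeq2 or without culture 2 of 30 min.

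The 3 transportins rose at 5 against 0 min, where 28.7% of all genes tested were called higher. TNPO1, which imports RNA-binding proteins such as hnRNP A1, had 147 and 127 TMM-scaled CPM at 0 min, 303 and 336 at 5 min, 236 and 241 at 15 min, and 209.6 and 256 at 30 min. TNPO2, its close relative, had 79.8 and 77.2 at 0 min, 129.8 and 173 at 5 min, 208 and 188 at 15 min, and 247 and 239 at 30 min. TNPO1 was highest at 5 min and TNPO2 at 30 min, although no step between later times passed the test for TNPO1. At 5 against 0 min the log2 fold changes were 1.22 ± 0.19 for TNPO1, 0.96 ± 0.22 for TNPO2 and 1.38 ± 0.21 for TNPO3, the receptor of SR splicing proteins. IPO5, an importin of ribosomal proteins, was the import receptor that fell: it had 145 and 166 at 5 min against 214 and 250.2 at 0 min (log2 -0.56 ± 0.19, edgeR adjusted p = 0.0131), a call that did not hold without culture 2 of 0 min or culture 1 of 5 min and that turned to 0.17 with total counts as the only scaling. IPO7 rose (0.66 ± 0.23), although not by DESeq2 or without culture 2 of either time. IPO9 and IPO8 did not pass the test, with log2 fold changes of 0.24 and 0.27. IPO13, which carries cargo both ways, had 24.8 and 15.5 against 12.1 and 7.72 and, with 5 to 38 counts a culture, did not pass the test (0.95 ± 0.55).

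**Figure D3:**
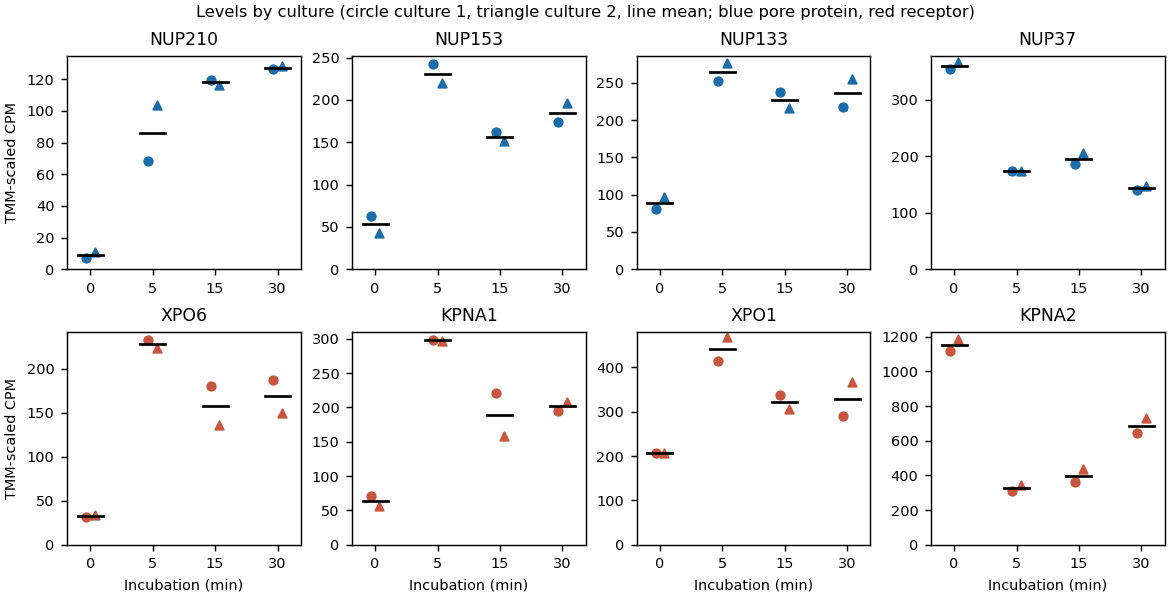
TMM-scaled CPM of 4 pore proteins (blue, top) and 4 transport receptors (red, bottom) by incubation time in min; circles are culture 1, triangles culture 2 and lines the mean of the 2. NUP153, NUP133, XPO6, KPNA1 and XPO1 have their highest mean at 5 min, NUP210 has it at 30 min, and NUP37 and KPNA2 are highest at 0 min, with KPNA2 at 645 and 729.7 by 30 min against 1117 and 1186 at 0 min.

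The sequences before the start sites of 4 of these genes are shown because their changes at 5 against 0 min mark the ends of each class. NUP210 and NUP37 had the largest increase and the largest decrease of the pore genes, KPNA2 had the largest decrease of the receptors, and XPO6 had the largest increase of the receptors after IPO11. Both genes overlap other annotated genes: IPO11 overlaps KIF2A and LRRC70, and XPO6 overlaps 3, of which TPRKBP2 lies on its strand. They are the 250 bases before the start in RefSeq (GRCh38.p14), read 5′ to 3′ on the strand of the gene: NUP210 at chr3:13420323-13420572 on the minus strand, NUP37 at chr12:102120115-102120364 on the minus strand, XPO6 at chr16:28211966-28212215 on the minus strand and KPNA2 at chr17:68035485-68035734 on the plus strand. Capitals mark matches, on either strand, to 6 short motifs, none of which contains another: the CCAAT box, the GC box (GGGCGG), the ETS core (CCGGAAG), the E-box (CACGTG), the cell-cycle element (TTTGAA) and the TATA box (TATAAA).
NUP210: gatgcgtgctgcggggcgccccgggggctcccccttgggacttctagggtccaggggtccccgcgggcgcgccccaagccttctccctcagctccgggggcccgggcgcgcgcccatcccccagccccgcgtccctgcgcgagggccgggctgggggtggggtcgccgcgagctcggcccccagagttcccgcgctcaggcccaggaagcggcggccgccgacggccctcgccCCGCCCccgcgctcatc
NUP37: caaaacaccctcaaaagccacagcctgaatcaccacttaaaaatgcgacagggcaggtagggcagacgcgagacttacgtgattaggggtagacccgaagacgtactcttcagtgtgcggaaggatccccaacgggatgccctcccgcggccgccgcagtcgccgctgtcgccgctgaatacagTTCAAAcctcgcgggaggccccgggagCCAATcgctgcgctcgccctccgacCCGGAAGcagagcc
XPO6: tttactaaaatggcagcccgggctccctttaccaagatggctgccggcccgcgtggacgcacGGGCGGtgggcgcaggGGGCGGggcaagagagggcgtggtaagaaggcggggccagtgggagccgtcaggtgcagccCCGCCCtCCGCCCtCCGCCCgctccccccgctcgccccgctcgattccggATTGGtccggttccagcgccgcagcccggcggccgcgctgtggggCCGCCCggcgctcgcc
KPNA2: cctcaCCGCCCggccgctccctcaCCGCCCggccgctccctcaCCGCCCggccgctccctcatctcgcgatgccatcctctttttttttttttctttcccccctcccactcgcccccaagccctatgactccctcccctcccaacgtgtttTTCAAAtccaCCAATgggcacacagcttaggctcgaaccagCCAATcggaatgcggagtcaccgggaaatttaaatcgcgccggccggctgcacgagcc
KPNA2 held 2 CCAAT boxes, 3 GC boxes and 1 cell-cycle element. NUP37 held 1 CCAAT box, 1 cell-cycle element and 1 ETS core, the last of these starting 14 bases before the start site. XPO6 held 6 GC boxes and 1 CCAAT box, and NUP210 held 1 GC box. Of the 41 members, 36 were in the RefSeq promoter table, 18 of each class. The ETS core stood in 8 of 18 pore promoters and 2 of 18 receptor promoters, against 8.82% of all 27305 promoters. The GC box stood in 9 pore and 12 receptor promoters (42.3% of all), the CCAAT box in 9 and 9 (33.0%), the cell-cycle element in 5 and 3 (13.6%), the E-box in 2 and 3 (6.49%) and the TATA box in 0 and 2 (11.1%). The background holds all promoters, also those of genes outside the 10439 tested here, whereas every member was tested, so the sets are unlike. A match describes the letters only, and no test was made.

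At 15 against 0 min 7 pore genes rose and 4 fell, and 13 receptors rose and 3 fell, where 54.4% of all genes tested passed the test, 29.8% higher and 24.6% lower. The class medians of the log2 fold change were 0.17 for the pore genes and 0.84 for the receptors, against 0.19 over all genes tested. At 30 against 0 min 8 pore genes rose and 5 fell, and 13 receptors rose and 3 fell, with 55.9% of all genes tested called, 32.1% higher and 23.8% lower. The medians were 0.12 for the pore genes and 0.74 for the receptors, against 0.35 over all genes. Cultures lay wholly above those of 0 min in 8 pore genes and 17 receptors at 15 min (42.1% of all genes tested) and in 8 and 18 at 30 min (45.8%). They lay wholly below in 4 pore genes and 3 receptors at 15 min (33.9%) and in 6 and 3 at 30 min (31.8%). These comparisons share the 0 min cultures with that of 5 min, so their counts are no independent repeat. The pore median minus the median of all genes was 0.23, -0.01 and -0.23 at 5, 15 and 30 min, and the receptor median minus that of all genes was 0.85, 0.65 and 0.39.

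Further pore genes passed the test at 30 against 0 min. NUP160 of the Y complex had 204 ± 5.95 TMM-scaled CPM at 30 min against 130.4 ± 20.6 at 0 min (SD, n = 2 each), a log2 fold change of 0.64 ± 0.20 (edgeR adjusted p = 0.00799). NUP43, also of the Y complex, had 22.2 and 42.4 at 30 min against 72.5 and 43.2 at 0 min, a log2 fold change of -0.86 ± 0.32 (edgeR adjusted p = 0.0234). Without culture 2 of 0 min NUP160 was at 0.52 and did not pass, nor did it by DESeq2. NUP43 was at -0.395 without culture 1 of 0 min and at -0.44 without culture 1 of 30 min, and passed in neither case. NUP43 overlaps PCMT1, and its change turned to 0.011 with total counts as the only scaling. NUP37, NUP85 and NUP88 had log2 fold changes of -1.32, -1.08 and -1.23 at 30 against 0 min.

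The calls of decrease depend on the scaling, and so does the division of the pore genes at 5 min. Scaled by total counts alone, 13 pore genes were higher and 0 lower at 5 against 0 min, with a median log2 fold change of 1.06. Of the receptors 19 were higher and 1 lower, with a median of 1.69. With total counts as the only scaling, 32 members were higher and 1 was lower at 5 against 0 min, in place of 23 and 6, while the median log2 fold change of all genes tested moved to 0.83 and 4461 of them were higher and 1448 lower. At 15 against 0 min the members came to 32 higher and 1 lower, where 4901 of all genes tested were higher and 1307 lower and their median was 0.96. At 30 against 0 min they came to 31 and 1, where 5622 of all genes tested were higher and 1331 lower and their median was 1.22. Among the members, KPNA2 was the 1 that still fell at 5 and at 15 min, and NUP37 was the 1 at 30 min, where KPNA2 turned to 0.14.

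The ratio of summed pore counts to summed receptor counts needs no scaling between cultures, although its absolute size reflects the lengths of the genes. It was 0.883 and 0.774 at 0 min, 0.804 and 0.821 at 5 min, 0.846 and 0.888 at 15 min, and 0.717 and 0.738 at 30 min, or 0.828 ± 0.0764, 0.812 ± 0.0119, 0.867 ± 0.0294 and 0.728 ± 0.0153 as mean and SD of 2 cultures. The 0 min cultures spanned those of 5 min, and both 30 min cultures were below all others. KPNA2 alone made up 39.0% and 41.9% of the receptor counts at 0 min, 8.70% and 8.96% at 5 min, 11.2% and 14.3% at 15 min, and 18.9% and 20.5% at 30 min. Without the member of each class with the most counts, NUP155 and KPNA2, the mean ratio was 1.29 for 0 min, 0.790 for 5 min, 0.907 for 15 min and 0.831 for 30 min. Each of the 6 later cultures was then below both 0 min cultures.

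**Figure D4:**
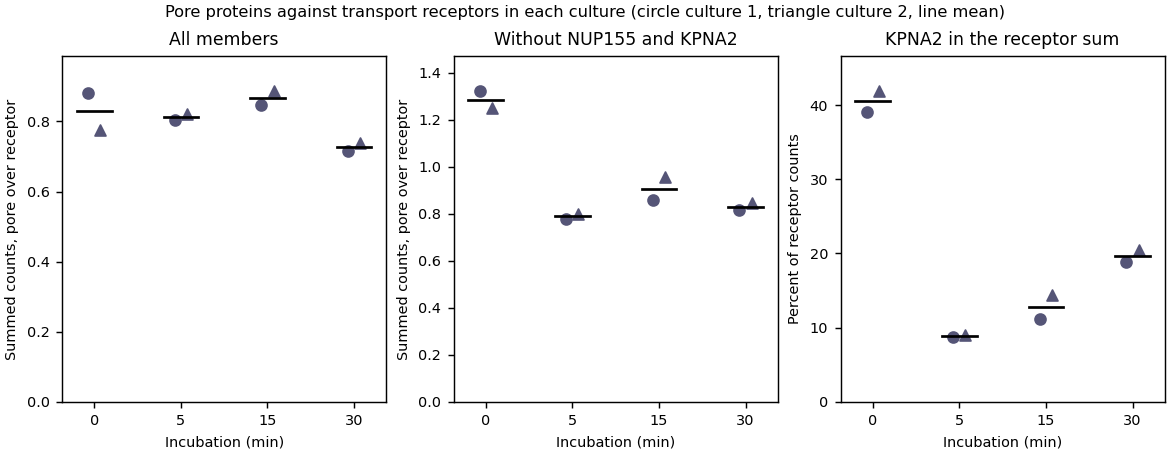
The ratio of summed pore counts to summed receptor counts in each culture by incubation time in min, for all members (left) and without NUP155 and KPNA2 (middle), and the percent of receptor counts that were KPNA2 (right); circles are culture 1, triangles culture 2 and lines the mean of the 2. The ratio of all members stays between 0.717 and 0.888, whereas without NUP155 and KPNA2 it is at most 0.907 on average at the later times, against 1.29 at 0 min, and the KPNA2 share has its lowest values, 8.70% and 8.96%, at 5 min.

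Among the later times few members passed the test. At 15 against 5 min 0 pore genes and 1 receptor passed the test, where 1.55% of all genes tested did, 1.03% higher and 0.517% lower. Of the pore genes 4 had an unadjusted p under 0.05 in edgeR's test and 0 passed by DESeq2. Of the receptors 6 had such a p and 1 passed by DESeq2. In both classes 0 of these were higher at 15 min. The share of all genes tested with such a p was not computed. IPO11 fell by 0.96 ± 0.23 on the log2 scale (edgeR adjusted p = 0.0188). It did not pass when any 1 culture of 5 or 15 min was left out. At 30 against 15 min 0 pore genes and 1 receptor passed, where 5.04% of all genes tested did, 2.26% higher and 2.78% lower. Of the pore genes 4 had an unadjusted p under 0.05 and 0 passed by DESeq2. The receptor was KPNA2, with 645 and 729.7 TMM-scaled CPM at 30 min against 363 and 436 at 15 min, an increase of 0.78 ± 0.18 (edgeR adjusted p = 0.00494). Without culture 2 of 30 min it was at 0.69 and did not pass (edgeR adjusted p = 0.14).

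At 30 against 5 min, where 12.4% of all genes tested passed, 5.88% higher and 6.52% lower, 2 pore genes fell, 2 receptors rose and 2 receptors fell. KPNA2 rose 2.08-fold, with 645 and 729.7 TMM-scaled CPM at 30 min against 312 and 347 at 5 min (log2 1.06 ± 0.18, edgeR adjusted p = 0.000105). TNPO2 rose by 0.67 ± 0.18 (edgeR adjusted p = 0.014), a call not made by DESeq2 or without culture 1 of 5 min or either culture of 30 min. IPO11 fell, with 76.3 and 80.5 at 30 min against 133 and 145 at 5 min, by 0.83 ± 0.22 in log2 (edgeR adjusted p = 0.0118). KPNA1 fell by 0.56 ± 0.18 (edgeR adjusted p = 0.0371), NUP155 by 0.70 ± 0.19 (edgeR adjusted p = 0.0122) and NUP43 by 1.05 ± 0.31 (edgeR adjusted p = 0.0192). These 4 decreases did not pass the test with total counts as the only scaling, without culture 2 of 5 min or without culture 1 of 30 min. The medians of the classes were close, -0.26 for the pore genes and -0.27 for the receptors, against -0.03 over all genes tested. An unadjusted p under 0.05 in edgeR's test was found for 7 pore genes and 9 receptors, 2 of each class being higher. The share of all genes tested with such a p was not computed. NUP210 and NUP50, at 0.53 ± 0.23 and 0.70 ± 0.34, had positive values that did not pass the test.

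The members differ in the length of their genes, and at 5 against 0 min longer genes tended to have the higher log2 fold changes. Gene spans, overlapping genes and named pseudogenes were taken from the GENCODE 29 annotation. Over the 9338 tested genes with a match, the median span from first to last base was 38.4 kb. It was 68.1 kb in the pore genes and 67.8 kb in the receptors. KPNA2 had the shortest, 11.3 kb, and IPO11 the longest, 225 kb. Across genes, Spearman's rho between span and the log2 fold change of 5 against 0 min was 0.53 over the 19 pore genes, 0.61 over the 22 receptors and 0.56 over all 9338 genes. At 30 against 5 min it was 0.07 over the pore genes, -0.72 over the receptors and -0.28 over all genes. These are descriptions across genes of the same 8 cultures, and genes are not independent replicates. NUP50 and TNPO2, with spans of 24.2 and 24.8 kb, had log2 fold changes of 1.77 and 0.96 at 5 against 0 min, whereas KPNA3, at 93.6 kb, had -0.93. The part of gene length in the changes of the members was not tested.

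**Figure D5:**
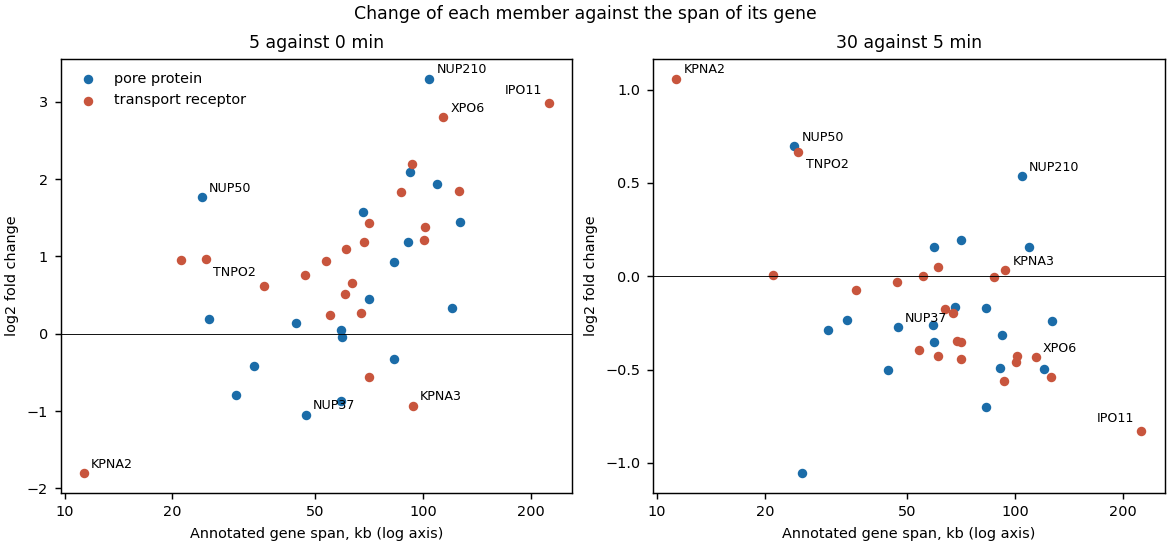
The log2 fold change of each member against the span of its gene in kb on a log axis, for 5 against 0 min (left) and 30 against 5 min (right), with pore proteins in blue and transport receptors in red. At 5 against 0 min the points run upward from KPNA2 (11.3 kb, -1.80) to IPO11 (225 kb, 2.98), and at 30 against 5 min KPNA2 is the highest (1.06) and the receptors run downward to IPO11 (-0.83).

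Under TMM scaling, other genes of the same machinery, from lists taken from general knowledge, had medians below 0 at 5 against 0 min. The lists were not refitted with total counts as the only scaling, under which the median of all genes tested moved from 0.10 to 0.83. The sign of a list median may therefore depend on the scaling. Of 13 pore genes with other names, 3 rose and 6 fell at 5 against 0 min, with a median log2 fold change of -0.59, against 28.7% higher, 26% lower and a median of 0.10 over all genes tested. SEC13, a Y complex protein that is also part of the coat of secretory vesicles, had 247 and 213 TMM-scaled CPM at 5 min against 1029.8 and 1191 at 0 min, a log2 fold change of -2.28 ± 0.19 (edgeR adjusted p = 5.52e-12). TPR, the filament protein of the basket, rose by 0.51 ± 0.18 (edgeR adjusted p = 0.0183) and POM121, a membrane protein of the pore, by 2.44 ± 0.43 (edgeR adjusted p = 1.08e-05). At 30 against 5 min TPR fell by 0.71 ± 0.18 (edgeR adjusted p = 0.00635).

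Of the 8 genes of the Ran cycle 1 rose and 5 fell at 5 against 0 min, with a median of -0.98, beside the same 28.7% and 26% of all genes tested. RAN itself had 845 and 878 TMM-scaled CPM at 5 min against 3585 and 4076 at 0 min (log2 -2.15 ± 0.19, edgeR adjusted p = 2.92e-11), and NUTF2, which brings Ran back into the nucleus, had 113 and 132 against 774 and 849.5 (log2 -2.71 ± 0.19). RANBP3, a cofactor of XPO1, was the 1 that rose (1.63 ± 0.58, edgeR adjusted p = 0.0166). RCC1, which loads Ran with GTP, had 242 and 321 at 0 min, 223 and 220.4 at 5 min, 299 and 307 at 15 min, and 533 and 540.4 at 30 min. It was highest at 30 min and rose by 1.27 ± 0.18 at 30 against 5 min (edgeR adjusted p = 3.61e-06).

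Of 11 tested genes of mRNA export 5 fell at 5 against 0 min, with a median of -1.02, where 26% of all genes tested were lower and their median was 0.10. The helicase DDX39A had 157 and 168 TMM-scaled CPM at 5 min against 618 and 680 at 0 min (log2 -1.99 ± 0.20, edgeR adjusted p = 2.17e-10). THOC7, of the THO complex that couples transcription to export, had 207 and 142 against 500.4 and 627 (log2 -1.71 ± 0.21). NXT1, the partner of the export receptor NXF1, rose by 2.20 ± 0.39 at 30 against 5 min (edgeR adjusted p = 0.000182), the largest increase of that list there. That increase starts from a low point: NXT1 fell at 5 against 0 min (-1.38 ± 0.44, edgeR adjusted p = 0.00781). Its 5 min cultures held only 7 and 20 counts. At 30 against 0 min NXT1 did not pass the test (0.82 ± 0.36, edgeR adjusted p = 0.0523). These lists were not tested against the members.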

How the data were processed

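RNA of HEK293 cells was counted in 32 libraries, 8 cultures at 4 incubation times. The deposited file is a single table of whole-number counts per gene. The sources used here do not give the counting tool, its use of strand, or whether molecular identifiers were collapsed. The submitters' processing notes name the aligner STAR and the genome build hg19. Each table column was tied to its sample by the barcode that its header and the sample title share, and 0 columns of sample values were left unused.

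Members were found by symbol. The members, lists, motifs and naming rule were chosen with earlier results of these data known. Counts were summed over the 4 libraries of a culture. Changes between times were tested two-sided on all genes with edgeR 4.0.16 in R 4.3.3: TMM scaling, filterByExpr (10439 genes), 1 quasi-likelihood fit over 8 cultures (4 residual degrees of freedom), and a threshold of 0.05 on p-values adjusted by Benjamini-Hochberg. The biological coefficient of variation was 15.3%. An exact permutation test of 2 cultures against 2 cannot go below p = 0.333 and was not used. A standard error is the size of a log2 change over the square root of its F statistic. Class medians, ratios and spans are descriptions without a test.

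Named with values are the 5 members of each class with the most counts, up to 4 of each class with the largest called changes in each direction in 4 comparisons, those called between neighbouring later times, and from each other list the 2 with the most counts and the largest called changes. TNPO3, XPO5, XPOT, KPNA4, KPNA5, KPNA6, IPO7, IPO8, IPO9, NUP35, NUP188 and others were added so that every member is accounted for.

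Alternatives were total counts as the only scaling, RLE size factors, DESeq2 1.42.0, 2 other filters on low counts, the replicate number as a block, 1 library per cDNA, and leaving out each culture. In counts simulated for 5 against 0 min with 200 of 10439 genes changed, the fit recovered 8% of genes changed 1.5-fold, 34% of those changed 2-fold, 86% of those changed 3-fold and 88% of those changed 4-fold, with 6 false calls among 114. Far more genes were called in the data than were changed there, so these percentages do not carry over to the comparisons with 0 min.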

Additional observations from a re-analysis of the deposited data

How the results depend on the processing

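With total counts as the only scaling, the members called lower were 1 at 5, at 15 and at 30 against 0 min and 0 at 30 against 5 min, and those called higher at 15 against 0 min were 32. Under it 5 changes turned positive and did not pass the test: IPO5 at 5 against 0 min (0.17), NUP54 at 15 (0.18) and 30 (0.23) against 0 min, and KPNA2 (0.14) and NUP43 (0.011) at 30 against 0 min. The scaling shifts all genes alike, and the median of all genes moved with it. RLE size factors gave 2 members lower at 15 against 5 min and 11 at 30 against 5 min, and DESeq2 gave 1 higher and 8 lower at 30 against 5 min. Of all genes tested, 74 were lower at 15 against 5 min with RLE, in place of 54. At 30 against 5 min 1122 were lower with RLE and 779 by DESeq2, in place of 681, and 367 were higher by DESeq2, in place of 614. With 1 library per cDNA the pore median minus the receptor median was -0.77 at 30 against 0 min and 0.26 at 15 against 5 min, and 1 member was lower at 30 against 15 min; the cause was not tested. The pore to receptor ratio without NUP155 and KPNA2 was 1.29, 0.790, 0.907 and 0.831 at 0, 5, 15 and 30 min, and with equal weight per member 1.21, 0.971, 1.10 and 0.964.

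Leaving out each culture in turn, the pore median minus the receptor median ranged from -0.75 to -0.42 at 5 against 0 min, from -0.66 to -0.34 at 15 against 0 min (-0.34 without culture 1 of 0 min), from -0.79 to -0.51 at 30 against 0 min and from 0.10 to 0.34 at 15 against 5 min (0.34 without culture 1 of 15 min). The members lower at 15 against 5 min ranged from 0 to 2, and those higher at 30 against 15 min from 0 to 1. At 30 against 5 min the members higher ranged from 1 to 3 and the members lower from 0 (without culture 2 of 5 min or culture 1 of 30 min) to 7 (without either culture of 0 min). Of the values of single members, 1308 kept their direction and their side of the threshold, 82 kept their direction and lost the call, and 5 reversed. These numbers include refits without a culture of a time outside the comparison, which bear little on it. Total counts as the only scaling gave 17 of the lost calls and all 5 reversals. A lone culture left at a time is assumed to vary like the others.

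Cultures with the same number did not deviate together: the 6 correlations of the culture differences between times lay between -0.03 and 0.07. With the replicate block, 23 members were higher and 6 lower at 5 against 0 min, 20 and 7 at 15, and 21 and 8 at 30, and no count of members moved. The numbers of calls over all genes at 5 against 0 min were then 2928 and 2664.

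A member that did not pass the test may have changed. At 0 min NUP210, NUP50 and IPO13 rest on 5 to 12 counts a culture.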
